A study of Mus musculus with 22 samples.

Results

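EtOH_TRAP was compared with Control_TRAP, that is, the RNA held by tagged ribosomes in the prefrontal cortex (PFC) of mice given ethanol (EtOH, n = 4) and of mice given saline (Control, n = 3). The members are the 7 libraries whose labels name a Control or an Ethanol pull-down, of 22 libraries in the series, and the genes read in them are the 14072 of 39056 that passed the filter of the study on low counts. All 7 mice were male and 8 to 12 weeks of age. On a C57BL/6J background, they came from a cross of the transgenes Tg(tetO-EGFP/Rpl10a)5aReij and Tg(CaMKIIα-tTA)1Mmay, so that the tagged ribosomal subunit EGFP-Rpl10a depends on the CaMKIIα promoter. Control mice were injected with saline and EtOH mice with ethanol at 2 g/kg per day, in 2 intraperitoneal injections per day over 4 days, and tissue was taken 2 h after the last of them. Each TRAP library came from its own mouse, named here by the animal id of the labels: 1, 4 and 7 for Control and 2, 5, 8 and 9 for EtOH. The total-RNA (INPUT) libraries of the same mice are given beside the TRAP values where they help, and the mice that also received the PARP inhibitor ABT-888 are not compared here. Which transcripts rise and which fall on these ribosomes with EtOH, and what the genes do, is the question addressed.

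In TRAP, an antibody against EGFP pulls down ribosomes of the cells that express the tag, together with the RNA they hold, so the measurement follows ribosome-held RNA of one set of cells rather than the whole tissue. CaMKIIα is a calcium-activated kinase of the postsynaptic density, abundant in excitatory pyramidal neurons of the cortex and also present in projection neurons of the striatum. Ethanol modulates GABA-A and NMDA receptors, and in rodents it also releases glucocorticoids from the adrenal gland and lowers body temperature. Glucocorticoids enter neurons, bind a nuclear receptor and change transcription of a known set of genes within hours.

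Between 9604310 and 18960961 reads were counted per Control_TRAP library (median 17402016) and between 13822758 and 22002618 per EtOH_TRAP library (median 18325327). Levels are normalized CPM, counts scaled to library size with TMM factors, and were scaled separately within TRAP and within total-RNA, so that levels set beside each other across the sample types rest on separate scales. Gene positions are those of build mm10. Values are listed throughout in the order of mice 1, 4 and 7 for Control and of mice 2, 5, 8 and 9 for EtOH. Across genes, which are no independent replicates, Pearson's r of log2 CPM was 0.947 to 0.977 in the 9 library pairs of one group and 0.937 to 0.967 in the 12 pairs that join the groups. On the first principal component, which held 36.9% of the variance, the EtOH library of mouse 9 lay nearest to the Control libraries. On the next component, with 22.2% of the variance, the EtOH library of mouse 2 stood alone at 70.9, the other 6 lying between -31.3 and 2.10. Without it the count of genes called below, 737, was 607.

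The label of the pulled-down cells, cortical excitatory neurons, was checked against marker genes before the comparison. The summed level of 12 markers of striatal projection neurons was between 15074 and 18831 CPM in Control_TRAP and between 15449 and 19597 CPM in EtOH_TRAP, against between 2118 and 2670 CPM in Control_total-RNA and between 2346 and 3474 CPM in EtOH_total-RNA. The adenosine receptor gene Adora2a and the dopamine receptor gene Drd2, which define one class of striatal projection neurons, were 11.9 and 10.3 times as high in Control_TRAP as in Control_total-RNA by the group means. Markers of cortical excitatory neurons were divided. Of the 8 tested, 7 were lower in Control_TRAP than in Control_total-RNA by the group means, while Nrgn, neurogranin, was 2.22 times as high, and their summed level lay between 4769 and 6040 CPM in Control_TRAP against 4319 to 5238 CPM in Control_total-RNA. Of 16 cortical layer markers, 10 were lower and 6 higher, among the latter Syt6 (4.36 times) and Bcl11b (3.88 times), a transcription factor that striatal projection neurons express too. Slc17a7, the vesicular glutamate transporter of cortical neurons, was at 343, 439.9 and 417 CPM in Control_TRAP against 934, 997 and 775 CPM in Control_total-RNA, and Tbr1, a transcription factor of deep cortical layers, at 67.3, 58.9 and 98.3 CPM against 178, 176 and 176 CPM. Camk2a itself was at 1838, 1961 and 1686 CPM in Control_TRAP and 2259, 2267 and 1841 CPM in Control_total-RNA. The pulled-down RNA is therefore named below by its method, TRAP, and not by a cell type.

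The same markers also differed between mice within TRAP. Slc17a7 was at 292, 108, 148 and 387 CPM in EtOH, and Tbr1 at 34.3, 10.6, 30.03 and 65.3 CPM. For Slc17a7 and Tbr1, mice 2, 5 and 8 were below every Control mouse, whereas mouse 9 lay within the Control range, and neither gene was called (adjusted p = 0.190 and 0.138). In total-RNA their log2 fold changes were -0.12 and -0.03 (adjusted p = 0.489 and 0.879). Of the 8 excitatory neuron markers, Neurod6, a transcription factor of cortical pyramidal neurons, was called lower (20.8, 17.1 and 24.7 CPM in Control and 8.46, 3.98, 4.72 and 9.03 CPM in EtOH, log2 fold change -1.68, standard error 0.30, adjusted p = 0.0116) and none was called higher, with a median log2 fold change of -0.84. Neurod6 was also called lower in total-RNA (log2 fold change -0.99, adjusted p = 0.00159). Camk2a was at 2359.8, 2371, 2772 and 2631 CPM in EtOH (log2 fold change 0.47, adjusted p = 0.0541). Of the 16 cortical layer markers and the 12 interneuron markers, the quasi-likelihood test of edgeR called none in either direction. By that test 4 and 3 of them had an unadjusted p under 0.05. DESeq2 called 2 and 0 of them, and exactTest, the 2-group test of edgeR, 2 and 1. Their medians were -0.32 and -0.06. In RNA pulled down from a piece of tissue, fewer cells of a type and less RNA per cell cannot be told apart.

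The 12 interneuron markers summed to between 1915 and 2033 CPM in Control_TRAP and between 1807 and 2415 CPM in EtOH_TRAP, against between 980 and 1038 CPM in Control_total-RNA and between 1069 and 1150 CPM in EtOH_total-RNA. By the group means of Control, 5 of them were higher in TRAP, among them Dlx5 (10.4 times), Dlx6 (6.57 times) and Slc32a1 (5.56 times), which GABA neurons of the striatum express too, and Pvalb, Sst, Vip and the other 4 were lower. Markers of glial and vascular cells were low in TRAP in both groups. The summed level of 10 astrocyte markers lay between 116 and 209.7 CPM in Control_TRAP and between 91.4 and 383 CPM in EtOH_TRAP, against between 1696 and 2094 CPM over both groups of total-RNA. The 12 microglia markers summed to between 29.2 and 55.8 CPM in Control_TRAP and between 15.96 and 70.9 CPM in EtOH_TRAP. P2ry12, a purine receptor of resting microglia, was the 1 of them that was called, and fell (3.74, 2.14 and 5.15 CPM in Control and 0.485, 0.0936, 0.535 and 0.201 CPM in EtOH, log2 fold change -3.46, adjusted p = 0.0113). P2ry12 overlaps Med12l on the opposite strand. Of the 12, 4 had a positive log2 fold change in TRAP, up to 1.11 for C1qb, and none of these was called. In total-RNA, 8 of the 12 fell, against 8.6% of all genes, and the sums of the 12, 458 to 478 CPM in Control and 220 to 336 CPM in EtOH, did not overlap. Of the 12 oligodendrocyte lineage markers, Ugt8a, an enzyme of myelin lipid synthesis, was called lower (log2 fold change -1.59, adjusted p = 0.0482), and of the 10 astrocyte and 9 endothelial and pericyte markers none was called by edgeR or DESeq2, with 1 of each at an unadjusted p under 0.05. Mouse 2 had the highest summed level of the astrocyte, oligodendrocyte, microglia and endothelial lists among the 7 TRAP libraries. Each gene was also fitted with the mean level of the glial and vascular markers as a covariate, and the count from that fit is given with the counts. Beyond this fit, the part of these cells in the differences below was not tested.

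**Figure D1:**
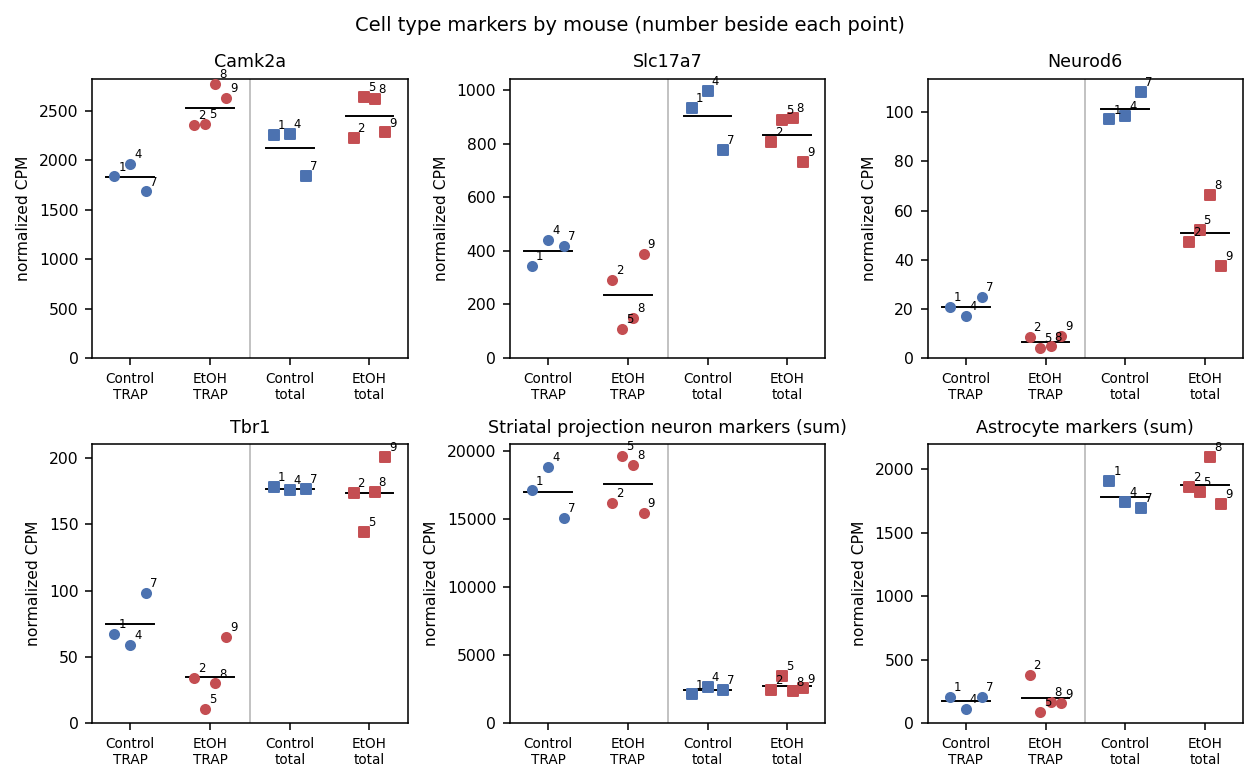
Normalized CPM of marker genes in each mouse, with TRAP libraries as circles left of the grey line and total-RNA libraries as squares right of it, Control in blue, EtOH in red, and a black bar at the group mean; TRAP and total-RNA were scaled separately. Slc17a7, Neurod6 and Tbr1 are lower in TRAP than in total-RNA and lowest in EtOH mice 2, 5 and 8, and the striatal sum is between 15074 and 19597 CPM in TRAP against 2118 to 3474 CPM in total-RNA.

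The ribosome-held level of 737 of the 14072 genes (5.24%) changed with EtOH. Every adjusted p given here comes from the quasi-likelihood test of edgeR, adjusted after Benjamini and Hochberg, and a gene was called where it was under 0.05. Of these, 390 rose (2.77% of the genes tested) and 347 fell (2.47%). Among the genes that rose, 162 did so by at least 2-fold and 46 by at least 4-fold, and among those that fell, 156 and 21 did so. Protein-coding genes made up 699 of the 737, and 18 were long intergenic non-coding RNAs. The Control and EtOH values did not overlap in 727 of the 737, as in 22.2% of all genes tested. A further limit is strand, since the strand setting of the counting is not given in the sources used here, and 233 of the 737 genes share exonic bases with a gene on the opposite strand.

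The size of the change differed between the EtOH mice. The genes that rose lay a median of 0.88, 1.10, 0.90 and 0.72 above the Control mean (log2) in mice 2, 5, 8 and 9, and those that fell lay at -1.01, -1.21, -0.93 and -0.70. Mouse 9 had the smallest change of the 4 mice in 401 of the 737 genes. Without the library of mouse 9 the count was 1550, without that of mouse 5 it was 372, and without Control mouse 1, 4 or 7 it was 94, 84 and 112, in fits with 2 Control libraries. In all 7 fits that each left out a library, 65 genes were called. With the mean level of the excitatory neuron markers as a covariate, an alternative added after the data were seen, 52 genes (0.37%) were called, 44 of them among the 737, and all 737 kept their direction. These markers themselves tended to be lower in EtOH (median log2 fold change -0.84), so a call lost with this covariate is no test of cell content. With the mean of the glial and vascular markers as a covariate, 497 genes were called.

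**Figure D2:**
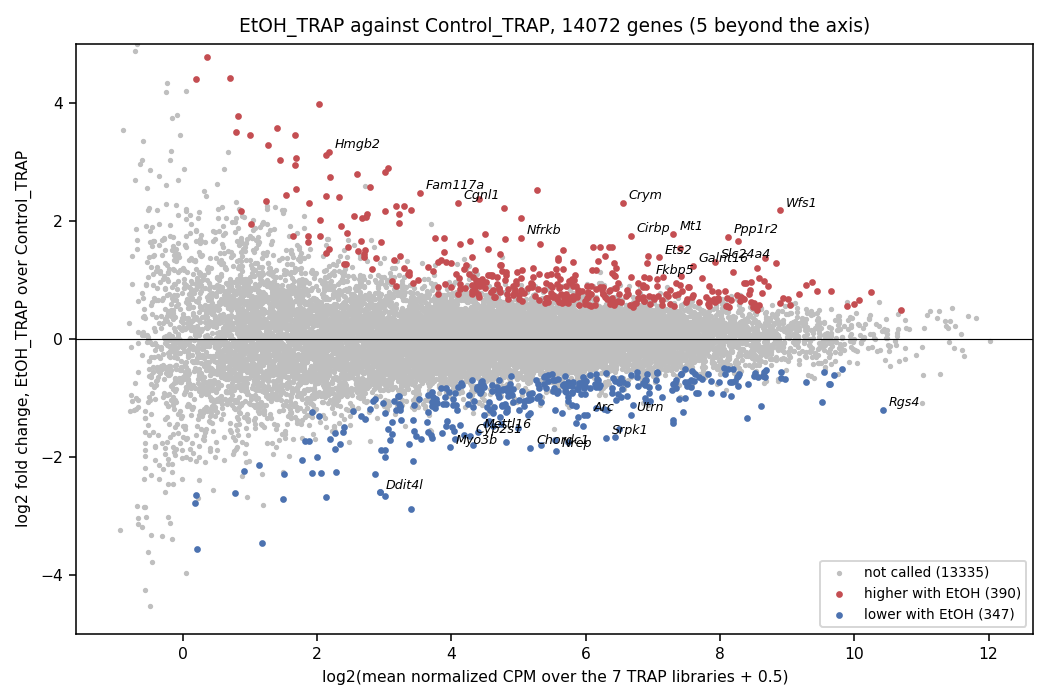
Log2 fold change of EtOH_TRAP over Control_TRAP against the mean level over the 7 libraries, on a log2 scale, for the 14072 genes tested, with genes called higher in red, genes called lower in blue and the others in grey; 5 genes lie beyond the axis. The 390 genes that rose and the 347 that fell lie at low and at high levels, with named examples marked.

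The genes that rose with the smallest p-values include genes for proteins of calcium and phosphate signalling, the endoplasmic reticulum, chromatin and cell junctions. The leading genes here and below, by p-value or by size of change, were chosen among called genes whose Control and EtOH values do not overlap. That separation was thus a condition of the choice and is no result. Slc24a4 (chr12:102128733-102267091), a potassium-dependent sodium/calcium exchanger of the plasma membrane, was at 139, 131 and 129 CPM in Control and 274, 326, 343 and 368 CPM in EtOH (log2 fold change 1.30, standard error 0.14, adjusted p = 0.00226). Ppp1r2 (chr16:31251537-31275277), inhibitor-2 of protein phosphatase 1, was at 129.8, 103 and 126 CPM in Control and 355, 517, 411 and 295 CPM in EtOH (log2 fold change 1.72, standard error 0.19, adjusted p = 0.00226). The transcription factor gene Ets2 (chr16:95702075-95721051) was at 68.5, 66.7 and 78.6 CPM in Control and 212, 203, 158 and 168 CPM in EtOH (log2 fold change 1.38, standard error 0.16, adjusted p = 0.00226). In these 3 genes the highest level was in mouse 9 for Slc24a4, mouse 5 for Ppp1r2 and mouse 2 for Ets2. Wfs1 (chr5:36966104-36989205), wolframin, a membrane protein of the endoplasmic reticulum that takes part in calcium and protein homeostasis, was at 136, 146 and 189.7 CPM in Control and 967, 839.7, 595 and 447 CPM in EtOH (log2 fold change 2.18, standard error 0.25, adjusted p = 0.00226). Its lowest EtOH value, in mouse 9, was still far above the highest Control value, in mouse 7.

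Nfrkb, a subunit of the INO80 chromatin remodelling complex, was at 12.6, 13.97 and 15.7 CPM in Control and 43.6, 59.1, 45.02 and 36.001 CPM in EtOH (log2 fold change 1.70, standard error 0.20, adjusted p = 0.00251). Galnt16, an enzyme that starts O-linked glycosylation, shares exonic bases with 2 opposite-strand genes and was at 109, 101 and 117 CPM in Control and 278, 268, 265 and 212 CPM in EtOH (log2 fold change 1.23, adjusted p = 0.00251). Cgnl1, a tight junction and adherens junction protein, was at 6.34, 4.60 and 4.54 CPM in Control and 21.1, 37.1, 23.02 and 19.7 CPM in EtOH (log2 fold change 2.31, adjusted p = 0.00251). Pkp2, a plakophilin of desmosomes, was at 9.87, 7.07 and 9.69 CPM in Control and 43.4, 54.7, 43.4 and 22.1 CPM in EtOH (log2 fold change 2.21, adjusted p = 0.00312). Both junction genes had their highest level in mouse 5 and their lowest EtOH level in mouse 9. Suox, the mitochondrial sulfite oxidase, was at 5.19, 6.00 and 5.92 CPM in Control and 20.4, 16.9, 19.4 and 17.8 CPM in EtOH (log2 fold change 1.70, adjusted p = 0.00253). Lgi3, a secreted protein of the family that organizes synaptic adhesion, was at 52.97, 29.98 and 37.2 CPM in Control and 124, 122, 105 and 117 CPM in EtOH (log2 fold change 1.55, adjusted p = 0.00253). In contrast to the junction genes, the EtOH values of Suox and Lgi3 were within a narrow band in all 4 mice. Fam117a (log2 fold change 2.48, overlapping Gm11521 and Gm29477) and Fam214a (1.32) also belong to the genes with the smallest p-values, as do Mt1 and Ppp2r5b, described below. The 14 rising genes of this rank named here were all called in each of the 7 fits that left out a library and with the excitatory covariate.

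The largest increases, among genes with a mean of at least 5 CPM in EtOH, included several secreted and matrix proteins. Ccl17, a chemokine, was at 0.104, 0.0535 and 0.886 CPM in Control and 4.85, 8.38, 9.64 and 1.14 CPM in EtOH (log2 fold change 3.99). Apod, the lipid carrier apolipoprotein D, was at 12.6, 5.67 and 12.7 CPM in Control and 127, 36.97, 41.95 and 30.6 CPM in EtOH (2.53). The chemokine value of mouse 9 was near the highest Control value and the Apod value of mouse 2 stood far above those of the other mice. Lgals3bp, a secreted glycoprotein that binds galectins, was at 0.831, 1.77 and 2.27 CPM in Control and 19.8, 13.99, 6.76 and 9.57 CPM in EtOH (2.89). Col6a1, a chain of collagen VI, was at 5.19, 6.10 and 7.14 CPM in Control and 23.99, 32.8, 60.5 and 10.5 CPM in EtOH (2.37). Insl6 (2.83), of the insulin-like peptide family, Spink8 (2.57), a peptidase inhibitor, and Rnf43 (2.42), a ubiquitin ligase that removes Wnt receptors from the membrane, rose as well. Hmgb2, a chromatin-bound high mobility group protein, was at 0.519, 0.482 and 1.11 CPM in Control and 4.85, 7.11, 8.37 and 5.69 CPM in EtOH (3.17). Adjusted p-values of the 10 genes with the largest increases did not exceed 0.0229. Apod, Rnf43 and Col6a1 lost their call without Control mouse 1, 4 or 7, and Ccl17 without Control mouse 1 or 4 or EtOH mouse 8. The set is completed by Fam117a and by Crym, which is described with the total-RNA. With the excitatory covariate, Fam117a, Hmgb2 and Spink8 of the 10 were called.

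**Figure D3:**
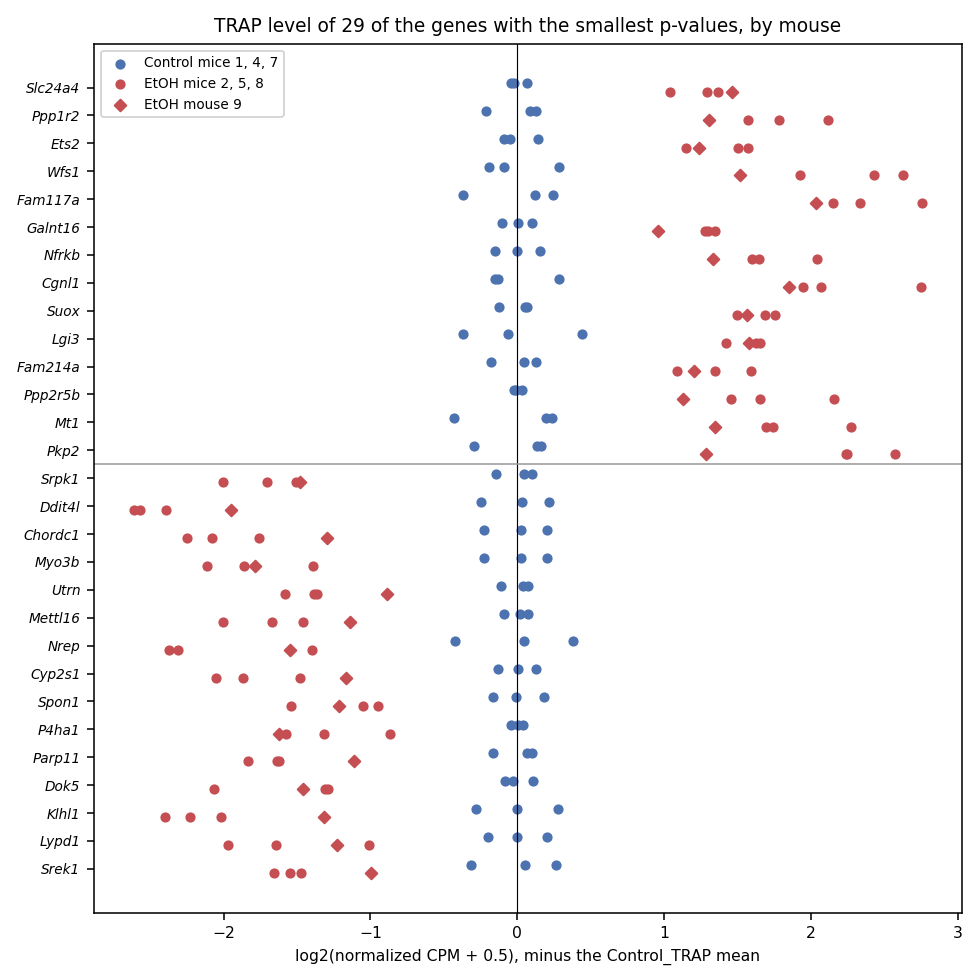
Level of 14 of the rising (above the grey line) and 15 falling (below it) protein-coding genes with the smallest p-values, as log2(normalized CPM + 0.5) minus the Control_TRAP mean, with 1 point per mouse, Control in blue, EtOH in red and EtOH mouse 9 as a diamond. The 29 genes were chosen so that the 4 EtOH points lie on one side of the 3 Control points. Mouse 9 is the EtOH mouse nearest the Control mean in 9 of the rising and 9 of the falling genes.

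Among genes of phosphate signalling, subunits and inhibitors of protein phosphatases changed. The gene lists here and below were chosen with earlier results of these data known, so their counts are descriptions. Of 46 serine/threonine phosphatase subunits tested, 7 were called higher and 2 lower, against 2.77% and 2.47% of all genes, while the median log2 fold change of the list was -0.06 against 0.02 over all genes. Beside Ppp1r2, Ppp2r5b rose (141, 136 and 137 CPM in Control and 435, 618, 379.9 and 302 CPM in EtOH, log2 fold change 1.65, standard error 0.21, adjusted p = 0.0029). Ppp2r5d rose too (246, 229 and 239 CPM in Control and 406, 340.4, 382 and 354 CPM in EtOH, log2 fold change 0.64, adjusted p = 0.0182). Both encode regulatory B56 subunits, which direct protein phosphatase 2A to its substrates, and they overlap Gpha2 and Mea1 on the opposite strand. Ppp1r9a, neurabin, which anchors protein phosphatase 1 in dendritic spines, was at 441, 464 and 383 CPM in Control and 671, 1103, 946 and 623 CPM in EtOH (log2 fold change 0.96, adjusted p = 0.0194). Ppp1r11, inhibitor-3 of protein phosphatase 1, fell (100.4, 94.6 and 87.04 CPM in Control and 45.4, 39.6, 60.4 and 67.1 CPM in EtOH, log2 fold change -0.82, adjusted p = 0.0279). The 2 inhibitors of the same phosphatase thus moved in opposite directions. Ppp1r13b, the p53-binding protein ASPP1, was at 87.97, 92.7 and 85.8 CPM in Control and 143, 145, 137 and 126 CPM in EtOH (log2 fold change 0.63, adjusted p = 0.0196). Without Control mouse 1, 4 or 7, and likewise with the excitatory covariate, 2 members were called higher and none lower. No member, and so not Ppp1r11, was called lower without EtOH mouse 5 or with the glial and vascular covariate. Without EtOH mouse 2 or 8, 1 was.

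In calcium signalling, 2 of 19 genes of the CaM kinase and calcineurin list rose (2.77% of all genes did) and none fell. Camk1g, a membrane-bound CaM kinase of neurons, was at 29.1, 26.3 and 35.7 CPM in Control and 76.9, 75.5, 87.1 and 59.9 CPM in EtOH (log2 fold change 1.30, standard error 0.18, adjusted p = 0.00408). Camkk1, a kinase that activates CaM kinases I and IV, was at 107, 109.6 and 98.5 CPM in Control and 237, 291, 166 and 181 CPM in EtOH (log2 fold change 1.06, adjusted p = 0.0122). Of 23 genes for calcium extrusion, stores and buffering (8.70% called, against 5.24% of all genes), Slc24a4 rose and Ryr1, a calcium release channel of the endoplasmic reticulum, fell (17.03, 27.7 and 24.6 CPM in Control and 6.38, 3.74, 9.88 and 13.5 CPM in EtOH, log2 fold change -1.47, adjusted p = 0.0344, overlapping Gm26604 and Gm44408). In cAMP signalling, 4 of 39 genes rose, against 2.77% of all genes, and none fell. Adcy9, an adenylyl cyclase that makes cAMP, was at 118, 112 and 116 CPM in Control and 182, 205, 167 and 219.8 CPM in EtOH (log2 fold change 0.75, adjusted p = 0.0144). Pde4b, a phosphodiesterase that degrades it, was at 262, 230.1 and 253 CPM in Control and 329, 478, 487 and 382 CPM in EtOH (log2 fold change 0.75, adjusted p = 0.0223). Pkia, an inhibitor of protein kinase A, was at 237, 225 and 229 CPM in Control and 349, 692, 419 and 327 CPM in EtOH (log2 fold change 0.96, adjusted p = 0.0352). Akap11, which anchors that kinase, was at 564, 519 and 606 CPM in Control and 791, 1179.8, 1257 and 703 CPM in EtOH (log2 fold change 0.80, adjusted p = 0.0398). The 4 thus comprise an enzyme that makes cAMP, one that removes it, an inhibitor and an anchor. None of the 4 was called without Control mouse 1, 4 or 7 or with the excitatory covariate, and 2 were without EtOH mouse 8. Members called lower numbered 4 without EtOH mouse 9, and 2 without the filter on low counts or in a single fit over all 22 libraries.

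Of 31 genes of Ras GTPases and their regulators, 3 were called higher and 1 lower, where 2.77% and 2.47% of all genes were. Rasgrf1, a calcium-activated exchange factor for Ras, was at 424, 348 and 469 CPM in Control and 771, 599.8, 766 and 659 CPM in EtOH (log2 fold change 0.76, adjusted p = 0.0183). Rasal1, which turns Ras off in response to calcium, was at 16.6, 16.9 and 23.9 CPM in Control and 58.3, 48.4, 32.9 and 32.1 CPM in EtOH (log2 fold change 1.16, adjusted p = 0.0199). Hras, one of the Ras GTPases, fell (329, 332 and 297 CPM in Control and 241, 201, 228 and 239 CPM in EtOH, log2 fold change -0.49, adjusted p = 0.0476). Of 16 regulators of G protein signalling tested, 1 rose and 1 fell (12.5% called, against 5.24% of all genes). Rgs14, a scaffold known from hippocampal area CA2, rose (49.02, 49.1 and 42.6 CPM in Control and 121, 143, 117 and 74.3 CPM in EtOH, log2 fold change 1.28, standard error 0.20, adjusted p = 0.0068). Rgs4 (chr1:169741477-169747642), which shortens signalling by Gq and Gi, fell (2119, 2264 and 1701 CPM in Control and 662, 631, 1179 and 1056 CPM in EtOH, log2 fold change -1.20, standard error 0.22, adjusted p = 0.0121). The lowest Control value of Rgs4 was above the highest EtOH value, in mouse 8, and mice 2 and 5 were lowest.

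Several genes induced by glucocorticoids rose. Of 27 such genes tested, 9 were called higher and none lower, a share of 33.3% against 2.77% of all genes called higher, and 26 of the 27 had a positive log2 fold change, with a median of 0.94. This list too was chosen with earlier results of these data known. Its shares in TRAP and in total-RNA describe it and are no test. Fkbp5 (chr17:28399094-28517527), the co-chaperone that restrains the glucocorticoid receptor, was at 78.3, 85.5 and 68.4 CPM in Control and 156, 179, 142 and 154 CPM in EtOH (log2 fold change 1.03, standard error 0.15, adjusted p = 0.00415). Sgk1, the serum- and glucocorticoid-regulated kinase, was at 65.4, 73.8 and 74.7 CPM in Control and 141, 136, 159.9 and 115 CPM in EtOH (log2 fold change 0.95, standard error 0.15, adjusted p = 0.00672). Rasd1, a Ras-like protein induced by dexamethasone, was at 5.40, 1.39 and 2.60 CPM in Control and 14.1, 16.2, 12.3 and 9.84 CPM in EtOH (log2 fold change 2.12, standard error 0.40, adjusted p = 0.0145). In these 3 genes each EtOH mouse lay above each Control mouse. Ddit4, an inhibitor of mTOR that is induced by stress, was at 38.7, 53.5 and 32.7 CPM in Control and 75.2, 76.7, 61.8 and 73.7 CPM in EtOH (log2 fold change 0.79, adjusted p = 0.0316). Lcn2, a secreted lipocalin, had no count in any Control library and was at 4.58, 0.983, 3.31 and 0.401 CPM in EtOH. Against a floor of 3 counts over the Control group, Lcn2 was at least 35.9-fold higher, and the median of the list did not move when it was set to this bound. Members of the list that were not called include Tsc22d3, the glucocorticoid-induced leucine zipper (log2 fold change 0.22, adjusted p = 0.587), and Klf9, a transcription factor (0.35, adjusted p = 0.188). Without Control mouse 1, 4 or 7 the members called numbered 3, 4 and 3, without EtOH mouse 2 they numbered 6, and with the excitatory covariate Mt1 and Fkbp5 were called. With DESeq2, with exactTest or without the filter on low counts 14 were called, and 3 at an adjusted p under 0.01.

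In the total-RNA of the same mice, Fkbp5 was at 31.1, 26.9 and 37.3 CPM in Control and 104, 109.9, 106 and 105 CPM in EtOH (log2 fold change 1.74, adjusted p = 1.67e-05), and Sgk1 at 64.8, 59.2 and 53.4 CPM and 201, 267, 203 and 199 CPM (1.88, adjusted p = 1.67e-05). Of the 27 genes, 26 were called higher there, where 9.04% of all genes were, and none lower, with a median log2 fold change of 1.22. In a fit that did not pair the libraries of a mouse, the change in TRAP was not called different from that in total-RNA for either gene (adjusted p = 0.523 for Fkbp5 and 0.752 for Sgk1).

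The metallothioneins, small cysteine-rich proteins that bind zinc and copper, belong to the same list. Mt1 (chr8:94179082-94180327) was at 76.3, 48.02 and 74.1 CPM in Control and 315, 210.3, 217 and 165 CPM in EtOH (log2 fold change 1.78, standard error 0.23, adjusted p = 0.00312). Mt2, which overlaps Gm45774 on the opposite strand, was at 13.9, 5.67 and 15.3 CPM in Control and 84.6, 28.2, 51.2 and 28.3 CPM in EtOH (log2 fold change 2.06, standard error 0.42, adjusted p = 0.0194). Both were highest in mouse 2, the library with the highest summed astrocyte markers, and both remained above every Control mouse in mice 5, 8 and 9. Metallothionein transcription is known to respond to zinc through the factor MTF1, which binds metal response elements. The promoter of Mt1 (chr8:94178839-94179138, plus strand, 250 bases before to 50 after the transcription start, RefSeq, build GRCm38.p6) is printed 5′ to 3′ with matches to the core TGCACNC or TGCGCNC, searched on both strands, in capitals.
Mt1: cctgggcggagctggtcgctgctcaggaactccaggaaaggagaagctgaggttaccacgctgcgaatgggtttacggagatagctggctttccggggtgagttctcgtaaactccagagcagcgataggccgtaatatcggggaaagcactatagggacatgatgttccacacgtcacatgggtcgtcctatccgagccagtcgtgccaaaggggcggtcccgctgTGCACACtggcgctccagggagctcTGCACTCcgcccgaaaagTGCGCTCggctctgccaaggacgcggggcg
It holds 3 matches. Such a match is in 25.7% of the 32851 promoters of the table and, by gene, in 28.2% of 27025 genes, in 5 of the 8 called members of the glucocorticoid list that have a listed promoter and in 6 of the 17 that were not called. A match is a sequence and not a shown binding site.

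Both cold-inducible RNA-binding protein genes were called higher, as 2.77% of all genes were. Cirbp (chr10:80165985-80172786) was at 47.2, 47.8 and 34.6 CPM in Control and 149, 223, 131 and 77.3 CPM in EtOH (log2 fold change 1.75, standard error 0.29, adjusted p = 0.00881). Rbm3 (chrX:8138975-8145880) was at 53.5, 38.01 and 24.6 CPM in Control and 127, 122, 114 and 88.3 CPM in EtOH (log2 fold change 1.55, standard error 0.24, adjusted p = 0.00545). The proteins are made at mildly lowered temperature and bind mRNA, and Rbm3 is known for its role in synapse structure. Each EtOH mouse lay above each Control mouse in both genes, and mouse 9 was the lowest EtOH mouse in both. In total-RNA the log2 fold changes were 1.55 and 1.29 (adjusted p = 0.00103 and 0.000561), where 9.04% of all genes were called higher. Rbm3 shares exonic bases with its antisense transcript Rbm3os. Without Control mouse 7, 1 of the pair was called, and with the excitatory covariate neither was (log2 fold change 0.92 and 1.29, adjusted p = 0.0837 for Cirbp and 0.0797 for Rbm3).

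Of 22 genes of the circadian clock, 5 were called higher, against 2.77% of all genes, and none lower, with a median log2 fold change of 0.31. Cry2, a cryptochrome of the repressor arm, was at 161, 182 and 152 CPM in Control and 315, 293, 283 and 266 CPM in EtOH (log2 fold change 0.81, standard error 0.13, adjusted p = 0.00881). Npas2, a partner of the activator BMAL1, was at 113, 92.8 and 119 CPM in Control and 180.2, 186, 193 and 157 CPM in EtOH (log2 fold change 0.72, adjusted p = 0.018). Tef, an output transcription factor of the PAR bZIP family, was at 392, 483 and 367 CPM in Control and 655, 1156, 675 and 621 CPM in EtOH (log2 fold change 0.91, adjusted p = 0.0332), with mouse 5 apart from the other mice. Per1, a repressor that also belongs to the glucocorticoid list, was at 73.2, 77.1 and 67.99 CPM in Control and 129.6, 193, 204 and 73.9 CPM in EtOH (log2 fold change 1.05, adjusted p = 0.0499). Ciart, a further repressor, was at 14.4, 9.37 and 9.52 CPM in Control and 29.4, 45.1, 39.5 and 12.2 CPM in EtOH (log2 fold change 1.52, adjusted p = 0.0359). In Per1 and Ciart mouse 9 lay within the Control range, so that their groups overlap, while mice 2, 5 and 8 lay above it. Cry2 and Tef overlap genes on the opposite strand. The list is sensitive to single libraries, with 0, 1 and 0 members called without Control mouse 1, 4 or 7 and 3 called without EtOH mouse 2, 5 or 8. Members called also numbered 3 with the glial and vascular covariate or in a single fit over all 22 libraries, and 0 with the excitatory covariate. With that covariate the log2 fold changes were 0.17 for Per1, 0.39 for Ciart, 0.44 for Tef, 0.60 for Npas2 and 0.74 for Cry2.

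Clock activators and repressors meet at the E-box, CACGTG. The RefSeq promoters (build GRCm38.p6) of Per1 (chr11:69098699-69098998, plus strand) and Ciart (chr3:95882179-95882478, minus strand) are shown because these genes rose together in mice 2, 5 and 8 and not in mouse 9, with the E-box in capitals.
Per1: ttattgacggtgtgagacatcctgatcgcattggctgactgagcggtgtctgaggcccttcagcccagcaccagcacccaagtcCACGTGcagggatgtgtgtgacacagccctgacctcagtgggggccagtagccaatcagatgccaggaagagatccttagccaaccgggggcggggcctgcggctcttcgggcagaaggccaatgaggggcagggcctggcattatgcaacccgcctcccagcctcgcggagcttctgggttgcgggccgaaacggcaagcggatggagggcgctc
Ciart: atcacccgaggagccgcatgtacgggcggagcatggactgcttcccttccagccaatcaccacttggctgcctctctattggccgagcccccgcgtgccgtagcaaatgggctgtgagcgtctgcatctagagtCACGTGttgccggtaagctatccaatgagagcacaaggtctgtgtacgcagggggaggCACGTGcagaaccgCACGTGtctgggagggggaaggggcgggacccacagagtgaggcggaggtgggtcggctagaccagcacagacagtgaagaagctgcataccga
Per1 has 2 listed starts, of which one with the most matches is shown, and Ciart has 1. Per1 holds 1 E-box in this window and Ciart 3. The E-box is a palindrome, reads the same on both strands and is in 7.15% of the 32851 promoters and 8.09% of the 27025 genes. It is in 3 of the 5 clock genes called and in 2 of the 13 others that were tested and have a listed promoter.

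**Figure D4:**
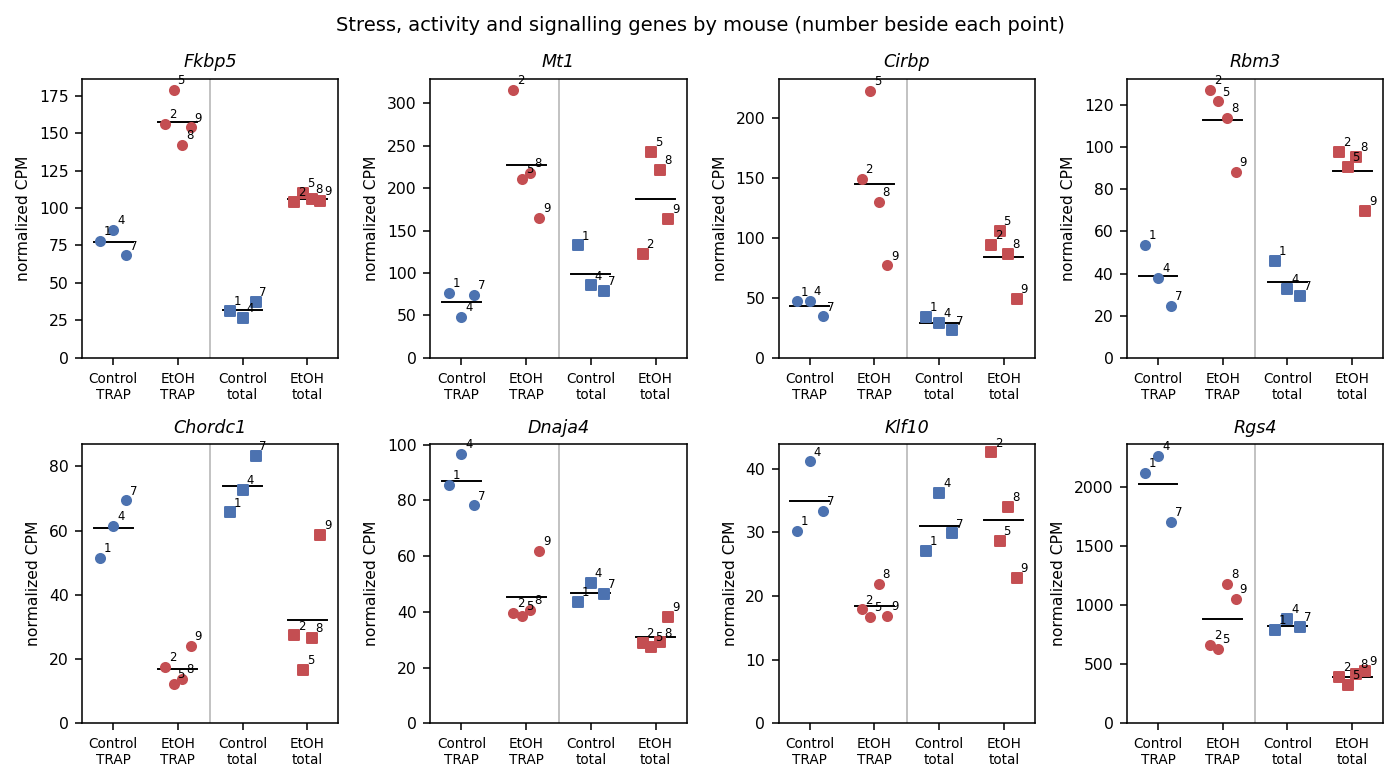
Normalized CPM of 8 genes in each mouse, drawn as in the plot of marker genes, with TRAP left and total-RNA right of the grey line in each panel. Fkbp5, Mt1, Cirbp and Rbm3 are higher and Chordc1, Dnaja4, Klf10 and Rgs4 lower in all 4 EtOH mice than in all 3 Control mice in TRAP.

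Among the genes that fell, those with the smallest p-values include genes for proteins that act on RNA, on growth signalling, on the cytoskeleton and on protein folding. Srpk1 (chr17:28587648-28622709), the kinase that phosphorylates SR splicing factors, was at 133, 139 and 117 CPM in Control and 39.3, 31.8, 45.1 and 46.04 CPM in EtOH (log2 fold change -1.68, standard error 0.16, adjusted p = 0.00221). Srek1, a splicing regulator of the SR family, was at 32.6, 42.3 and 48.9 CPM in Control and 13.6, 14.3, 12.6 and 20.2 CPM in EtOH (log2 fold change -1.45, standard error 0.21, adjusted p = 0.00421). Mettl16, an RNA methyltransferase that modifies U6 snRNA and the mRNA of S-adenosylmethionine synthetase, was at 33.7, 34.96 and 31.3 CPM in Control and 11.8, 7.91, 10.1 and 14.9 CPM in EtOH (log2 fold change -1.58, standard error 0.22, adjusted p = 0.00408). All 3 genes were lower in each EtOH mouse than in each Control mouse, as their choice required. Ddit4l (chr3:137621612-137628333), an inhibitor of mTOR, was at 15.9, 13.9 and 11.3 CPM in Control and 1.80, 1.87, 2.19 and 3.15 CPM in EtOH (log2 fold change -2.60, standard error 0.29, adjusted p = 0.00226), one of the largest decreases. Its relative Ddit4 rose, as given above. Dok5, a docking protein of receptor tyrosine kinases, was at 27.7, 25.2 and 24.3 CPM in Control and 10.2, 5.76, 10.1 and 9.03 CPM in EtOH (log2 fold change -1.55, adjusted p = 0.00421).

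Utrn (chr10:12382188-12869365), utrophin, which links actin to the membrane, was at 142, 157 and 161 CPM in Control and 59.2, 50.7, 58.2 and 82.2 CPM in EtOH (log2 fold change -1.29, standard error 0.17, adjusted p = 0.00319). Myo3b, a class III myosin, was at 26.2, 29.7 and 21.9 CPM in Control and 6.73, 5.57, 9.49 and 7.09 CPM in EtOH (log2 fold change -1.84, adjusted p = 0.00253). Klhl1, a kelch-like protein that binds actin, was at 21.8, 14.7 and 17.9 CPM in Control and 2.98, 3.42, 4.04 and 6.89 CPM in EtOH (log2 fold change -2.06, adjusted p = 0.00421). Spon1, F-spondin, a secreted adhesion protein, was at 101, 128 and 112 CPM in Control and 54.4, 38.6, 58.3 and 48.4 CPM in EtOH (log2 fold change -1.19, adjusted p = 0.00408). P4ha1, which hydroxylates prolines of collagen, was at 91.9, 89.5 and 86.7 CPM in Control and 35.6, 29.7, 48.8 and 28.7 CPM in EtOH (log2 fold change -1.32, adjusted p = 0.00408). Nrep, a small intracellular protein linked to axon regeneration, was at 80.5, 102 and 58.1 CPM in Control and 14.7, 15.3, 29.3 and 26.4 CPM in EtOH (log2 fold change -1.90, adjusted p = 0.00408). In these 6 genes, chosen without overlap of the groups, mouse 9 was not always the mildest, since it had the lowest P4ha1 level of all. Parp11, a mono-ADP-ribosyltransferase, was at 23.8, 20.1 and 24.3 CPM in Control and 6.93, 7.02, 5.99 and 10.2 CPM in EtOH (log2 fold change -1.59, adjusted p = 0.00415). Lypd1, which tunes nicotinic receptors and overlaps Gpr39, was at 242, 279.8 and 211 CPM in Control and 77.4, 61.5, 121 and 103 CPM in EtOH (log2 fold change -1.43, adjusted p = 0.00421). Cyp2s1, a cytochrome P450 that overlaps Gm26707, was at 28.1, 33.9 and 31.1 CPM in Control and 7.07, 8.10, 10.8 and 13.5 CPM in EtOH (log2 fold change -1.66, adjusted p = 0.00408). All 15 falling genes of this rank were called in each of the 7 fits without a library, and 6 of the 15, Srpk1, Ddit4l, Chordc1, Myo3b, Utrn and P4ha1, with the excitatory covariate.

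By size, the largest decreases were mostly in genes of low level. Mrvi1, a substrate of cGMP-dependent kinase at the inositol trisphosphate receptor, was at 8.20, 5.78 and 8.64 CPM in Control and 0.763, 0.187, 1.80 and 1.94 CPM in EtOH (log2 fold change -2.69, adjusted p = 0.0194). Rxfp1, the relaxin receptor, was at 4.99, 5.94 and 9.14 CPM in Control and 0.971, 0.562, 1.22 and 2.88 CPM in EtOH (log2 fold change -2.27, adjusted p = 0.0235). Mycn, a transcription factor of the Myc family, was at 6.34, 9.53 and 8.03 CPM in Control and 1.39, 0.187, 1.75 and 3.48 CPM in EtOH (log2 fold change -2.25, adjusted p = 0.0471). Tagln, an actin-binding protein of smooth muscle, was at 9.24, 20.8 and 11.3 CPM in Control and 0.624, 0.936, 6.42 and 1.00 CPM in EtOH (log2 fold change -2.59, adjusted p = 0.0398), with mouse 8 apart from the other EtOH mice. The myosin light chain gene Myl4 (-2.06), the axonemal dynein gene Wdr78 (-2.01) and the zinc finger gene Zfp760 (-2.27) complete this set with Ddit4l, Klhl1 and Mapk11. Mean levels in EtOH were below 5 CPM in all 10, and Mrvi1, Tagln, Myl4 and Wdr78 overlap genes on the opposite strand. Ddit4l and Klhl1 were called in each of the 7 fits without a library, the other 8 lost their call in at least 3 of them, and Ddit4l alone of the 10 was called with the excitatory covariate.

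Of 57 SR proteins, hnRNPs and splicing kinases, 4 fell and 2 rose, against 2.47% and 2.77% of all genes, with a median log2 fold change of -0.07. Srsf10, an SR protein that represses splicing when it is dephosphorylated, fell (37.6, 48.4 and 47.1 CPM in Control and 23.1, 22.2, 27.4 and 23.4 CPM in EtOH, log2 fold change -0.89, adjusted p = 0.014), as did genes of pre-mRNA packaging proteins. Hnrnpc was at 161, 161 and 171 CPM in Control and 96.6, 115, 119.6 and 112 CPM in EtOH (log2 fold change -0.57, adjusted p = 0.0315). Hnrnpa2b1 was at 305, 368 and 326 CPM in Control and 169, 223, 254 and 236 CPM in EtOH (log2 fold change -0.60, adjusted p = 0.0472). Srsf5, another SR protein, was at 119.5, 137 and 119.9 CPM in Control and 184, 287, 301 and 155 CPM in EtOH (log2 fold change 0.89, adjusted p = 0.0397). Clk4, a nuclear kinase of SR proteins, was at 17.9, 19.5 and 15.3 CPM in Control and 29.4, 27.5, 43.5 and 26.7 CPM in EtOH (log2 fold change 0.85, adjusted p = 0.0398). Both kinase families that phosphorylate SR proteins thus had a called member, Srpk1 lower and Clk4 higher.

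Heat shock proteins fold and refold other proteins. Of 30 chaperones and co-chaperones, 3 fell, against 2.47% of all genes, and none rose, and 23 of the 30 had a negative log2 fold change, with a median of -0.27. Chordc1 (chr9:18292125-18317442), a co-chaperone of Hsp90, was at 51.4, 61.4 and 69.4 CPM in Control and 17.5, 12.3, 13.9 and 24.2 CPM in EtOH (log2 fold change -1.85, standard error 0.23, adjusted p = 0.00253). Dnaja4, an Hsp40 co-chaperone that overlaps Wdr61, was at 85.5, 96.6 and 78.2 CPM in Control and 39.7, 38.5, 40.6 and 61.9 CPM in EtOH (log2 fold change -0.94, standard error 0.19, adjusted p = 0.0166). Dnajb5, of the same family, was at 92.2, 131 and 110.3 CPM in Control and 84.1, 59.3, 61.6 and 44.2 CPM in EtOH (log2 fold change -0.84, adjusted p = 0.037). Each EtOH mouse lay below each Control mouse in the 3 genes, with mouse 9 the highest EtOH mouse for Chordc1 and Dnaja4 and the lowest for Dnajb5. The main chaperones were not called. Hspa8, the constitutive Hsp70, had a log2 fold change of -0.31 (adjusted p = 0.306), Hsp90aa1 one of -0.18 (adjusted p = 0.533) and the inducible Hspa1a one of -0.89 (adjusted p = 0.422). Without Control mouse 1, 4 or 7, 1 member was called, as with the excitatory covariate, without EtOH mouse 5, 2 were, and without EtOH mouse 9, 7 members were called lower. Members called lower numbered 6 with DESeq2 or without the filter on low counts, and 5 with exactTest. In total-RNA, Chordc1 had a log2 fold change of -1.20 and Dnaja4 one of -0.60 (adjusted p = 0.0166 and 0.00896).

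Heat shock factor 1 binds repeats of GAA in alternating orientation. The RefSeq promoters (build GRCm38.p6) of the pair with the smallest p-values, Chordc1 (chr9:18292017-18292316, plus strand) and Dnaja4 (chr9:54699309-54699608, plus strand), are shown with matches to GAANNTTC or TTCNNGAA, which are each their own reverse complement, in capitals. Overlapping matches run together.
Chordc1: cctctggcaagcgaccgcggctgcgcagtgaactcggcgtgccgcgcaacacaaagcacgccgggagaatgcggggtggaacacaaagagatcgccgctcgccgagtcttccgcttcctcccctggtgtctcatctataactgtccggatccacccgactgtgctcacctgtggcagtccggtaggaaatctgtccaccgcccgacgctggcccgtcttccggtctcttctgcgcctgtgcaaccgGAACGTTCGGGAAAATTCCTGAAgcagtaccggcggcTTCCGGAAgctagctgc
Dnaja4: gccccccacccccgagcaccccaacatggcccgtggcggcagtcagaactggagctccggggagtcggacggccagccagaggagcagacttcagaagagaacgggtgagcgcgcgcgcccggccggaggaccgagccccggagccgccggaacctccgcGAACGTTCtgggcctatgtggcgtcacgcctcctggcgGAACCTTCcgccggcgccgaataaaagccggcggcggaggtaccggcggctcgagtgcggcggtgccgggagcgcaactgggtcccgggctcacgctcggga
Dnaja4 has 2 listed starts, of which one with the most matches is shown, and Chordc1 has 1. Chordc1 holds 5 matches and Dnaja4 2. A match is in 15.1% of the 32851 promoters and 16.97% of the 27025 genes, in 2 of the 3 chaperone genes called and in 10 of the 20 others that were tested and have a listed promoter.

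Of 36 immediate early and activity-dependent genes tested, 7 fell and 2 rose, against 2.47% and 2.77% of all genes, with a median log2 fold change of -0.45. In total-RNA the counts ran the other way, with 2 lower and 7 higher, against 8.6% and 9.04% of all genes there, and a median of 0.15, a difference that was not tested for the list. Crem, a cAMP-responsive transcriptional modulator, was at 28.98, 26.9 and 29.3 CPM in Control and 14.6, 9.64, 15.8 and 11.2 CPM in EtOH (log2 fold change -1.15, standard error 0.21, adjusted p = 0.0122). Klf10, an early growth response factor, was at 30.2, 41.1 and 33.4 CPM in Control and 17.9, 16.8, 21.9 and 16.9 CPM in EtOH (log2 fold change -0.93, standard error 0.18, adjusted p = 0.0171). Ier5, an immediate early regulator, was at 55.5, 93.5 and 55.5 CPM in Control and 42.02, 35.1, 38.8 and 39.6 CPM in EtOH (log2 fold change -0.81, adjusted p = 0.0343). In these 3 genes the groups do not overlap. Npas4, a neuron-specific factor induced by calcium influx, was at 20.04, 3.96 and 35.5 CPM in Control and 4.30, 1.54, 4.53 and 0.335 CPM in EtOH (log2 fold change -2.88, adjusted p = 0.0386). Arc, which remodels glutamate synapses, was at 114, 52.1 and 128 CPM in Control and 61.5, 23.5, 44.4 and 30.2 CPM in EtOH (log2 fold change -1.29, adjusted p = 0.0427). For Npas4 and Arc the Control mice themselves spread widely and mouse 4 lay at the level of the EtOH mice, so that the groups overlap. Homer1, a postsynaptic scaffold with an activity-induced short form, had a log2 fold change of -0.64 (adjusted p = 0.0481). Plk2, a kinase induced by activity, rose (405, 343 and 410.1 CPM in Control and 596, 597, 794 and 472 CPM in EtOH, log2 fold change 0.67, adjusted p = 0.0446), and so did Junb, an AP-1 subunit (log2 fold change 0.89, adjusted p = 0.0481).

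The classic early genes Fos and Egr1 were not called, with log2 fold changes of -0.72 (adjusted p = 0.492) and -0.71 (adjusted p = 0.13). Bdnf, the neurotrophin, was at 11.2, 8.24 and 12.6 CPM in Control and 7.70, 1.73, 1.80 and 1.74 CPM in EtOH (log2 fold change -1.74, adjusted p = 0.063). The list had no member called lower without Control mouse 1 or 7, 2 without Control mouse 4, and 3 without EtOH mouse 5 or 8. No member was called higher in any fit without 1 of these libraries, without EtOH mouse 2 or with the excitatory covariate, and without EtOH mouse 9, 4 were called higher and 5 lower. None was called lower with the covariate, where the log2 fold changes were -1.10 for Crem, -0.98 for Klf10, -0.75 for Ier5, -3.51 for Npas4 and -1.07 for Arc. Crem overlaps Gm6225 on the opposite strand.

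Axon guidance genes encode the ligands and receptors that steer and hold neurites. Of 67 tested, 7 fell and 1 rose, against 2.47% and 2.77% of all genes, with a median log2 fold change of -0.06. Sema7a, a membrane-anchored semaphorin, was at 241, 278 and 209 CPM in Control and 78.6, 51.2, 94.9 and 150.4 CPM in EtOH (log2 fold change -1.37, standard error 0.27, adjusted p = 0.0176). Its receptor Plxnc1 was at 37.8, 31.6 and 49.1 CPM in Control and 19.97, 14.2, 14.02 and 25.4 CPM in EtOH (log2 fold change -1.11, standard error 0.24, adjusted p = 0.0229). Ligand and receptor of the same pair were thus both lower in each EtOH mouse. Unc5c, a netrin receptor that overlaps Gm15688, was at 49.2, 44.4 and 51.9 CPM in Control and 20.1, 19.2, 26.1 and 29.2 CPM in EtOH (log2 fold change -1.04, adjusted p = 0.0115). The membrane-anchored netrin-G proteins of axons fell too. Ntng2 was at 14.6, 13.01 and 14.2 CPM in Control and 6.10, 2.53, 6.86 and 6.02 CPM in EtOH (log2 fold change -1.38, adjusted p = 0.0279). Ntng1 was at 22.3, 21.7 and 24.3 CPM in Control and 11.1, 5.48, 14.9 and 10.3 CPM in EtOH (log2 fold change -1.13, adjusted p = 0.0393). Epha8, an ephrin receptor, was at 7.37, 8.94 and 6.15 CPM in Control and 12.2, 24.6, 15.6 and 14.1 CPM in EtOH (log2 fold change 1.15, adjusted p = 0.0354). Without Control mouse 1, 4 or 7, or with the excitatory covariate, no guidance gene was called, and without EtOH mouse 9, 12 were called lower. Members called lower numbered 4 with the glial and vascular covariate and 11 with DESeq2. The rise of Epha8 was not called without EtOH mouse 5, and members called higher numbered 4 with DESeq2 or exactTest, 5 in the single fit over all 22 libraries and 6 without the filter.

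Of 38 cadherins, catenins and nectins, 3 fell, against 2.47% of all genes, and none rose. Cdh11, a classical cadherin, was at 108, 94.4 and 87.3 CPM in Control and 52.6, 48.6, 64.8 and 53.5 CPM in EtOH (log2 fold change -0.82, adjusted p = 0.014). Nectin3, an immunoglobulin-type adhesion protein of junctions, was at 14.96, 14.9 and 17.4 CPM in Control and 5.34, 2.95, 6.57 and 9.50 CPM in EtOH (log2 fold change -1.38, adjusted p = 0.0322). Ctnna1, the catenin that links cadherins to actin and overlaps Lrrtm2, was at 74.9, 82.7 and 73.3 CPM in Control and 36.9, 43.01, 38.3 and 64.7 CPM in EtOH (log2 fold change -0.75, adjusted p = 0.0453). The highest EtOH value was below the lowest Control value in each. In the extracellular matrix, 4 of 52 genes rose and 2 fell (11.5% called, against 5.24% of all genes). Beside Col6a1, its partner chain Col6a2 rose (3.22, 7.01 and 7.20 CPM in Control and 12.6, 12.9, 14.02 and 11.9 CPM in EtOH, log2 fold change 1.13, adjusted p = 0.042). Timp2, an inhibitor of metalloproteinases, was at 313, 269.5 and 256 CPM in Control and 521, 699, 485 and 385 CPM in EtOH (log2 fold change 0.90, adjusted p = 0.0196). Coch, cochlin, a secreted matrix protein, fell (143, 147 and 134 CPM in Control and 26.8, 24.6, 54.8 and 72.5 CPM in EtOH, log2 fold change -1.66, standard error 0.31, adjusted p = 0.014). It was lowest in mice 2 and 5.

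Of 40 genes of glutamate receptors and their postsynaptic scaffold, 5 fell and 1 rose, against 2.47% and 2.77% of all genes, with a median log2 fold change of -0.17 and 32 of 40 below 0. The AMPA receptor subunit Gria4 fell (75.1, 76.1 and 84.2 CPM in Control and 39.04, 42.03, 50.8 and 55.5 CPM in EtOH, log2 fold change -0.74, adjusted p = 0.0223), and so did auxiliary proteins of that receptor. Cnih3, a cornichon protein, was at 38.5, 35.4 and 28.02 CPM in Control and 21.2, 17.4, 18.01 and 17.7 CPM in EtOH (log2 fold change -0.87, adjusted p = 0.019). Cacng2, stargazin, was at 139.8, 143 and 117 CPM in Control and 73.9, 93.9, 102 and 89.8 CPM in EtOH (log2 fold change -0.57, adjusted p = 0.0494). The scaffolds of the postsynaptic density moved apart. Shank1 fell (152, 119 and 103 CPM in Control and 84.05, 62.8, 56.6 and 72.6 CPM in EtOH, log2 fold change -0.85, adjusted p = 0.0198). Shank2 rose (114, 93.6 and 109.8 CPM in Control and 184, 259.7, 145 and 163 CPM in EtOH, log2 fold change 0.83, adjusted p = 0.031). Of 15 GABA receptor genes (6.67% called, against 5.24% of all genes), Gabra2, a subunit of the GABA-A receptor, was called, and fell (73.5, 76.2 and 89.2 CPM in Control and 18.9, 29.8, 57.4 and 40.7 CPM in EtOH, log2 fold change -1.12, adjusted p = 0.0414). Cacng2 and Shank1 overlap genes on the opposite strand. Without Control mouse 1 or 4 no glutamate gene was called, without mouse 7, 2 were lower, and without EtOH mouse 5, 2 were lower. The rise of Shank2 was not called without Control mouse 7 or EtOH mouse 5 or with the glial and vascular covariate. With the excitatory covariate none was called.

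Of 43 receptors for neuromodulators, 2 were called higher and 4 lower, where 2.77% and 2.47% of all genes were. Cnr1, the cannabinoid receptor of presynaptic terminals, was at 1134, 1103 and 919 CPM in Control and 299.5, 360.5, 846 and 487 CPM in EtOH (log2 fold change -1.08, adjusted p = 0.0453). Drd2, the dopamine D2 receptor, was at 651, 611 and 499 CPM in Control and 370.0, 398, 369.6 and 453 CPM in EtOH (log2 fold change -0.56, adjusted p = 0.0406). Sstr1, a somatostatin receptor, was at 5.71, 7.01 and 5.59 CPM in Control and 1.25, 0.608, 1.12 and 3.21 CPM in EtOH (adjusted p = 0.0356). Hrh2, a histamine receptor, was at 20.7, 13.5 and 16.001 CPM in Control and 6.10, 8.89, 8.18 and 11.2 CPM in EtOH (log2 fold change -0.95, adjusted p = 0.0481). Hrh3, the histamine autoreceptor, was at 121, 138 and 102 CPM in Control and 222, 225, 199.5 and 199.5 CPM in EtOH (log2 fold change 0.81, adjusted p = 0.0116). Chrm5, a muscarinic receptor of low level, was at 1.14, 0.161 and 0.498 CPM in Control and 1.94, 5.05, 8.32 and 1.61 CPM in EtOH (log2 fold change 2.94, adjusted p = 0.0411). The 2 histamine receptors overlap genes on the opposite strand and moved in opposite directions. Of 7 opioid genes, 1 was called (14.3%, against 5.24% of all genes), and 5 had a positive and 2 a negative log2 fold change. The gene called, Oprk1, the kappa receptor for dynorphin, rose (27.8, 40.2 and 36.8 CPM in Control and 57.9, 162, 106 and 86.7 CPM in EtOH, log2 fold change 1.56, standard error 0.29, adjusted p = 0.014). Its lowest EtOH value, in mouse 2, was above the highest Control value.

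Of 56 potassium channel genes, 2 fell and 1 rose, a share of 5.36% that is near the 5.24% of all genes called. Kcnv1, a silent subunit that modifies Kv2 channels, was at 119, 115 and 132 CPM in Control and 61.997, 63.7, 73.98 and 55.4 CPM in EtOH (log2 fold change -0.94, standard error 0.14, adjusted p = 0.00572). Kcnt2, a sodium-activated channel that overlaps a gene on the opposite strand, was at 26.9, 23.2 and 23.1 CPM in Control and 7.63, 7.86, 9.78 and 17.3 CPM in EtOH (log2 fold change -1.20, adjusted p = 0.0293). Kcna1, a Kv1 channel of axons, was at 220.1, 229 and 199.6 CPM in Control and 357, 364, 333 and 309 CPM in EtOH (log2 fold change 0.66, adjusted p = 0.0176). Of 27 calcium, sodium and HCN channel genes, 1 rose and 1 fell (7.41% called, against 5.24% of all genes). Scn3a, a sodium channel, fell (173, 166 and 165 CPM in Control and 107, 103, 86.6 and 119 CPM in EtOH, log2 fold change -0.70, adjusted p = 0.0186). Cacnb2, an auxiliary calcium channel subunit that overlaps genes on the opposite strand, rose (216, 166 and 182 CPM in Control and 243, 313, 458 and 299 CPM in EtOH, log2 fold change 0.81, adjusted p = 0.0397). Of 43 genes of synaptic vesicle fusion, 3 fell and 1 rose (9.30% called), with a median log2 fold change of -0.15. Unc13a, which primes vesicles for release and overlaps Colgalt1, was at 283, 366 and 333 CPM in Control and 216, 141, 212 and 225 CPM in EtOH (log2 fold change -0.72, adjusted p = 0.0346). Rims1, a scaffold that ties vesicles to calcium channels, was at 296, 244 and 276 CPM in Control and 112, 99.3, 157 and 208 CPM in EtOH (log2 fold change -0.92, adjusted p = 0.0354). Rab3c, a vesicle GTPase, was at 519, 485 and 488 CPM in Control and 257, 299.7, 417 and 317 CPM in EtOH (log2 fold change -0.62, adjusted p = 0.0448). Erc2, a scaffold of the active zone that overlaps Gm45645, was at 308, 269 and 308 CPM in Control and 359, 464, 435 and 452 CPM in EtOH (log2 fold change 0.53, adjusted p = 0.0463). Nrn1, neuritin, an activity-regulated growth factor that overlaps Fars2, was at 99.5, 96.4 and 95.2 CPM in Control and 38.5, 10.2, 35.3 and 56.4 CPM in EtOH (log2 fold change -1.47, adjusted p = 0.0431), and was lowest in mouse 5.

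**Figure D5:**
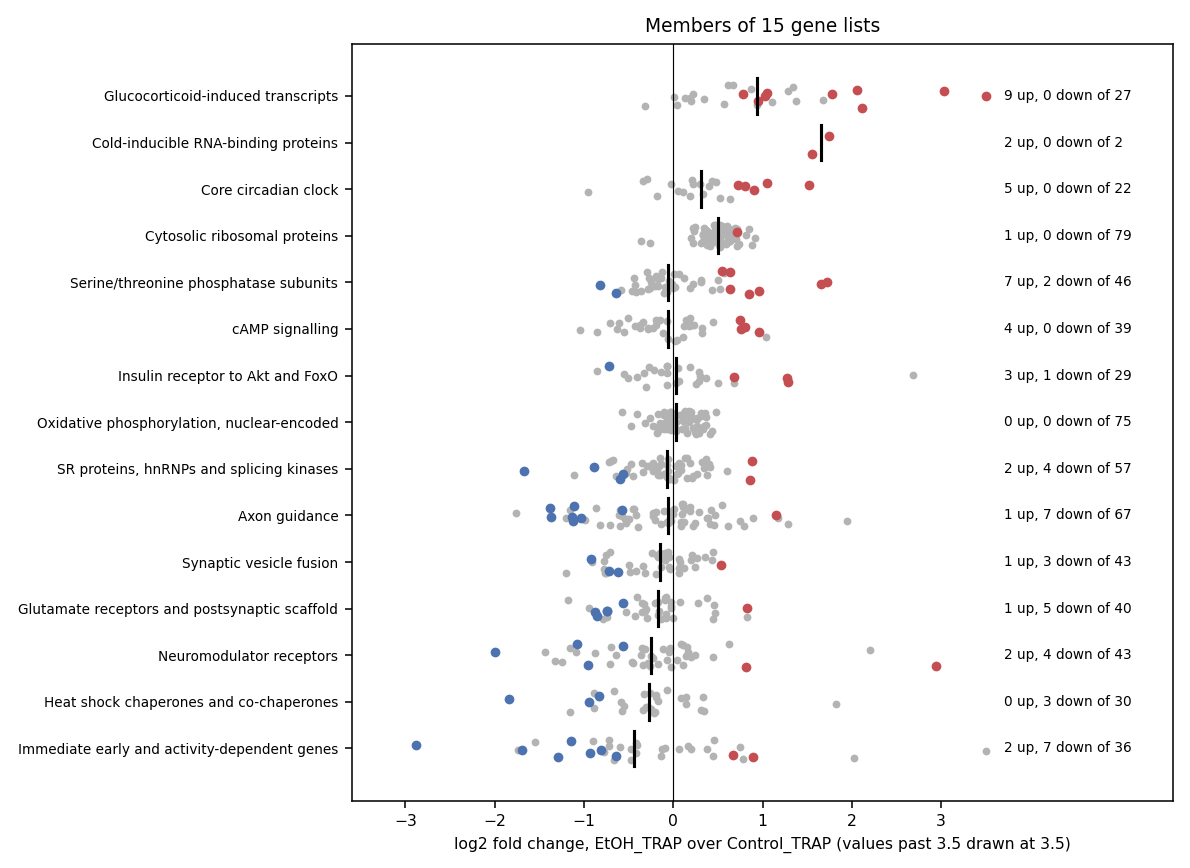
Log2 fold change of EtOH_TRAP over Control_TRAP for the tested members of 15 gene lists, with members called higher in red, members called lower in blue, the others in grey, and a black bar at the median of the list; the counts stand at the right. The medians of the glucocorticoid, cold-inducible and clock lists lie to the right of 0, the ribosomal proteins form a band around 0.51 with 1 call, and the medians of the heat shock and immediate early lists lie to the left, with members on both sides.

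Insulin receptor signalling, which the study examined, had 3 of 29 genes higher and 1 lower, where 2.77% and 2.47% of all genes were called, with a median log2 fold change of 0.03. Irs2, an adaptor of the insulin receptor, was at 67.8, 63.9 and 65.4 CPM in Control and 211, 188, 152 and 89.8 CPM in EtOH (log2 fold change 1.28, standard error 0.24, adjusted p = 0.0141). Inpp5k, a lipid phosphatase that dampens the pathway, was at 23.9, 18.3 and 21.1 CPM in Control and 33.8, 35.2, 30.1 and 35.7 CPM in EtOH (log2 fold change 0.68, adjusted p = 0.0414). Scnn1a, a subunit of the epithelial sodium channel, was at 3.01, 2.68 and 2.33 CPM in Control and 7.91, 6.74, 6.62 and 4.42 CPM in EtOH (log2 fold change 1.27, adjusted p = 0.0412). Akt2, a kinase of the pathway, fell (87.03, 85.3 and 71.5 CPM in Control and 53.7, 46.4, 45.8 and 52.1 CPM in EtOH, log2 fold change -0.72, adjusted p = 0.0185). The insulin receptor genes Insr and Igf1r were not called, with log2 fold changes of 0.29 (adjusted p = 0.241) and 0.05 (adjusted p = 0.904). In the MAP kinase list, 1 of 51 rose and 2 fell, 5.88% against 5.24% of all genes. Mapk8ip2, a scaffold of JNK signalling, was at 90.6, 79.9 and 93.8 CPM in Control and 171, 218, 182 and 158 CPM in EtOH (log2 fold change 1.05, standard error 0.15, adjusted p = 0.00421). Mapk11, a p38 kinase, was at 10.2, 10.6 and 16.4 CPM in Control and 2.50, 0.562, 1.22 and 6.02 CPM in EtOH (log2 fold change -2.30, adjusted p = 0.0397). Spred3, an inhibitor of Ras signalling that overlaps Ggn, was at 41.02, 46.3 and 35.3 CPM in Control and 22.8, 19.8, 26.7 and 14.99 CPM in EtOH (log2 fold change -0.95, adjusted p = 0.0234). Irs2 overlaps 9530052E02Rik. Of the 4 insulin genes called, Irs2 and Akt2 were called in 4 of the 7 fits without a library, Inpp5k in 2 and Scnn1a in 1, and none was with the excitatory covariate (log2 fold change 0.77 for Irs2 and -0.63 for Akt2).

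The study singled out 13 genes on these samples, from pathways such as insulin and chemokine signalling. Neither their direction nor their calls here are thus independent evidence. By the quasi-likelihood test 4 of the 13 rose (Rasd1, Irs2, Scnn1a and Mapk8ip2) and 4 fell (Mapk11, Mycn, Hltf and Rngtt), where 2.77% and 2.47% of all genes did. Rngtt, the mRNA capping enzyme, was at 36.97, 41.5 and 44.8 CPM in Control and 14.3, 13.8, 17.4 and 24.4 CPM in EtOH (log2 fold change -1.24, adjusted p = 0.0103). Hltf, a helicase-like chromatin remodeller, was at 20.98, 19.6 and 28.1 CPM in Control and 5.48, 5.05, 7.88 and 16.5 CPM in EtOH (log2 fold change -1.40, adjusted p = 0.0431). The other 5 were not called by this test, whereas DESeq2 called 11 of the 13. All 13 were called by exactTest, the 2-group test of edgeR. The study used that test for its own comparisons and took these genes from the result, so this count was fixed in advance. Irs4, an insulin receptor substrate, was at 0, 0.0535 and 0.221 CPM in Control and 1.18, 0.374, 0.389 and 0.937 CPM in EtOH (adjusted p = 0.134), at the limit of detection. Stxbp4, which regulates glucose transporter traffic, was at 24.5, 17.7 and 24.97 CPM in Control and 13.5, 7.72, 10.2 and 18.3 CPM in EtOH (adjusted p = 0.0927). Pla2g3, a secreted phospholipase, and Ptpn6, a phosphatase of immune cells, had log2 fold changes of 1.90 and 2.07 (adjusted p = 0.0585 and 0.0909). Irs4, Pla2g3 and Ptpn6 overlap genes on the opposite strand.

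Of 30 genes of glycolysis and of lactate and pyruvate use, 2 rose and 1 fell, against 2.77% and 2.47% of all genes. Pdk2, a kinase that turns off pyruvate dehydrogenase, was at 57.95, 57.6 and 59.6 CPM in Control and 131, 98.99, 83.7 and 134 CPM in EtOH (log2 fold change 0.94, adjusted p = 0.0155). Slc2a3, the neuronal glucose transporter, was at 176, 216 and 164 CPM in Control and 316, 336, 241 and 299.9 CPM in EtOH (log2 fold change 0.69, adjusted p = 0.029). Slc16a7, the neuronal lactate and pyruvate transporter MCT2, which overlaps Gm47862, fell (71.9, 68.2 and 88.8 CPM in Control and 21.8, 11.2, 25.1 and 35.2 CPM in EtOH, log2 fold change -1.71, standard error 0.29, adjusted p = 0.00894). In lipid synthesis, 2 of 30 genes rose and 1 fell, the same share as in glycolysis. Fdft1, squalene synthase, was at 52.1, 40.1 and 58.1 CPM in Control and 108, 115, 133 and 106 CPM in EtOH (log2 fold change 1.21, adjusted p = 0.00408). Lss, which turns oxidized squalene into lanosterol, was at 19.9, 15.04 and 15.5 CPM in Control and 35.9, 52.3, 29.8 and 24.4 CPM in EtOH (log2 fold change 1.09, adjusted p = 0.031). Elovl6, which elongates fatty acids, fell (66.5, 63.4 and 53.8 CPM in Control and 29.6 to 40.8 CPM in the 4 EtOH mice, log2 fold change -0.89, adjusted p = 0.0141). All 3 lipid genes overlap genes on the opposite strand. Txnip, which binds thioredoxin and responds to glucose, was at 1.56, 1.45 and 2.77 CPM in Control and 7.98, 3.37, 5.30 and 5.75 CPM in EtOH (log2 fold change 1.52, adjusted p = 0.0483, overlapping Gm15441). None of the 8 tested genes of ethanol and acetaldehyde metabolism was called by edgeR or DESeq2, and none had an unadjusted p under 0.05. Aldh2, the mitochondrial aldehyde dehydrogenase, had a log2 fold change of -0.10 (adjusted p = 0.847).

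Of the 75 nuclear-encoded genes of oxidative phosphorylation none was called by the quasi-likelihood test of edgeR, 1 by exactTest and 2 by DESeq2. Among the 75, 11 had an unadjusted p under 0.05 by the quasi-likelihood test. Their log2 fold changes had a median of 0.03 and a range from -0.57 to 0.48. None of the 13 genes of the mitochondrial genome was called by edgeR or DESeq2 or had an unadjusted p under 0.05 (median 0.12). Of 13 NF-kappaB subunits and inhibitors none was called by either tool, with 2 at an unadjusted p under 0.05 (median 0.01). In the endoplasmic reticulum stress list, 1 of 27 rose and 1 fell (7.41%, against 5.24% of all genes). Herpud1, which takes part in degradation of misfolded proteins, was at 49.2, 45.6 and 44.02 CPM in Control and 63.5, 70.7, 80.98 and 61.5 CPM in EtOH (log2 fold change 0.58, adjusted p = 0.0473). Pdia4, a disulfide isomerase, was at 59.9, 63.1 and 71.03 CPM in Control and 27.7, 27.8, 33.5 and 50.7 CPM in EtOH (log2 fold change -0.89, adjusted p = 0.0319). Of 26 PARP, sirtuin and NAD genes (7.69% called), Parp3, a DNA repair enzyme that overlaps Rrp9, was at 7.89, 4.55 and 5.37 CPM in Control and 12.8, 11.6, 12.7 and 13.5 CPM in EtOH (log2 fold change 1.10, adjusted p = 0.0293), and Parp11 fell as given above. Parp1, the main target of PARP inhibitors, had a log2 fold change of -0.22 (adjusted p = 0.738). Of 59 chromatin enzymes 3 were called, 5.08% against 5.24% of all genes. Hdac9, a class II deacetylase, fell (36.4, 29.7 and 41.1 CPM in Control and 13.7, 6.69, 12.7 and 21.4 CPM in EtOH, log2 fold change -1.40, adjusted p = 0.0234), as did Hltf. Kat2b, an acetyltransferase, rose (15.4, 13.01 and 10.4 CPM in Control and 28.1, 31.3, 22.3 and 21.1 CPM in EtOH, log2 fold change 1.00, adjusted p = 0.0251). Mnt, a repressor of the Myc network, was at 17.97, 16.4 and 12.8 CPM in Control and 43.6, 41.9, 25.1 and 28.1 CPM in EtOH (log2 fold change 1.14, adjusted p = 0.0194), in the opposite direction to Mycn.

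Of the cytosolic ribosomal protein genes, 1 of 79 was called higher (1.27%, below the 2.77% of all genes), while DESeq2 called 16 and exactTest 10. Of the 79, 77 had a positive log2 fold change, with a median of 0.51 against 0.02 over all genes, and Rpl8 was the gene called (178, 129.5 and 176 CPM in Control and 226, 239, 276 and 319 CPM in EtOH, log2 fold change 0.72, adjusted p = 0.0317). Their summed level was between 5541 and 8105 CPM in Control_TRAP and between 6738 and 12356 CPM in EtOH_TRAP, so that the groups overlap. In total-RNA the median was 0.02. Of 49 translation factors, 2 rose and 1 fell, a share of 6.12% near the 5.24% of all genes. Eif3f, a subunit of the initiation factor eIF3, was at 87.3, 75.1 and 79.3 CPM in Control and 101, 179, 157 and 156 CPM in EtOH (log2 fold change 0.88, adjusted p = 0.0222). Eif4b, a cofactor of the helicase that unwinds 5′ ends, was at 282, 317 and 240.0 CPM in Control and 422, 666, 429.6 and 408 CPM in EtOH (log2 fold change 0.78, adjusted p = 0.0354). Eif4g2, a scaffold for initiation without the cap-binding protein, fell (823, 829.9 and 759 CPM in Control and 498, 459, 507 and 483 CPM in EtOH, log2 fold change -0.72, standard error 0.12, adjusted p = 0.00894), and its 4 EtOH values lay within a narrow band far below the Control values.

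Most of the leading genes changed in total-RNA too. There EtOH changed 2482 genes (17.6%) at an adjusted p under 0.05, and of the leading genes in TRAP named above, 13 of the 14 that rose and 11 of the 15 that fell were called in the same direction. The exception among the rising genes was Fam117a (log2 fold change in total-RNA 0.82, adjusted p = 0.0738), and those among the falling genes were Myo3b (-0.76, adjusted p = 0.0586), Spon1 (0.26, adjusted p = 0.131), Klhl1 (-0.55, adjusted p = 0.107) and Lypd1 (-0.26, adjusted p = 0.347). The difference between the change in TRAP and in total-RNA entered one fit of all 22 libraries as an interaction term, which was called for 3 genes (0.0213%), with 685 at an unadjusted p under 0.05. Crym (chr7:120186380-120202111), which binds thyroid hormone in the cytosol, was at 33.1, 18.8 and 34.4 CPM in Control and 185, 193, 107 and 82.4 CPM in EtOH in TRAP and at 77.4, 65.6 and 74.6 CPM and 95.1, 101, 79.1 and 66.1 CPM in total-RNA. Fbln5 (chr12:101746565-101819055), an elastic fibre protein, was at 8.62, 7.17 and 6.26 CPM in Control and 1.87, 1.50, 2.14 and 2.54 CPM in EtOH in TRAP and at 4.76, 4.79 and 4.60 CPM and 10.2, 8.94, 5.40 and 6.29 CPM in total-RNA. Crym rose in TRAP and was not called in total-RNA, whereas Fbln5 fell in TRAP and rose in total-RNA. Pltp, a phospholipid transfer protein that overlaps Ctsa, was at 2.80, 2.09 and 2.93 CPM in Control and 11.2, 10.4, 6.72 and 4.48 CPM in EtOH in TRAP and at 24.03, 25.6 and 19.5 CPM and 12.6, 12.8, 11.5 and 12.7 CPM in total-RNA, the reverse of Fbln5. With the mouse as a block, since both libraries of a mouse enter this test, 14 genes were called. They include Crym (adjusted p = 0.00228), Fbln5 and Pltp (both 0.0177), and, of the genes described above, Wfs1 (0.0272), Camk1g (0.0197), Fdft1 (0.0177), Spon1 (0.0351) and Ntng1 (0.0376).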

How the data were processed

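The authors mapped the reads (paired-end) to mm10 using STAR and deposited a table of raw read counts per gene made with featureCounts (their versions and the strand setting are not given in the sources used here). Its 22 columns were mapped to samples by their labels. Genes with fewer than 500 counts in total over the 22 libraries, or detected in fewer than 3, were removed (24984 genes), as in the study. Names and positions came from GENCODE release 21 (mm10), where 184 genes were not found, and promoters from RefSeq (GRCm38.p6).

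EtOH and Control libraries were compared with edgeR 4.0.16 under R 4.3.3 (TMM factors, glmQLFit and glmQLFTest, Benjamini-Hochberg adjustment, called at an adjusted p under 0.05), and the script was tested on simulated data. Fold changes are log2 of EtOH over Control. TRAP and total-RNA libraries with the same animal number come from the same mouse, and after removal of group means they correlated with r between 0.102 and 0.408 in the 7 mice. Mice are biological replicates.

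The comparison, the 49 gene lists and the tests were chosen with earlier results of these data known. Named are the 15 protein-coding genes per direction with the smallest p-values among those called without overlap of the groups, the 10 with the largest change among the same genes at a mean of at least 5 CPM in the higher group, up to 6 called members per list and defining members not called, the 13 genes of the study, and the genes of the interaction. Results for some of these genes are not reported here. Homer1 and Junb are outside this rule and were named after their values were seen. Alternatives were exactTest, DESeq2 1.42.0, RLE factors, no filter, filterByExpr, all 22 libraries in one fit, a stricter threshold of 0.01, marker covariates, for the interaction a likelihood ratio test or the mouse as a block, and fits without each library. The covariates of excitatory and of striatal markers were chosen after seeing the data.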

Additional observations from a re-analysis of the deposited data

Results flagged for a closer look

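Within the 4 EtOH_TRAP libraries, the value of 1 mouse stood apart from the other 3 by Dixon's criterion in 9 of the genes named and in 1 marker sum, 10 of 167 groups of values checked, where chance flags about 1 in 20. Mouse 2 stood apart in Apod, the lipid carrier, with 127 CPM against 30.6 to 42.0 in the other EtOH mice, in Cnih3, the AMPA receptor auxiliary protein, with 21.2 CPM against 17.4 to 18.01, and in the summed endothelial and pericyte markers, with 41.9 CPM against 5.20 to 11.4. Mouse 5 stood apart in the clock output gene Tef, with 1156 CPM against 621 to 675, in the initiation cofactor Eif4b, with 666 CPM against 408 to 429.6, and in the vesicle priming gene Unc13a, with 141 CPM against 212 to 225. Mouse 8 stood apart in Tagln, the actin-binding protein, with 6.42 CPM against 0.624 to 1.00, in the splicing kinase Clk4, with 43.5 CPM against 26.7 to 29.4, and in the elongase Elovl6, with 40.8 CPM against 29.6 to 31.6. In mouse 9 the co-chaperone Dnaja4 was at 61.9 CPM against 38.5 to 40.6, nearer to the Control mice.

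The EtOH effect differed between TRAP and total-RNA by the interaction test in 3 genes, and in 14 with the mouse as a block, these 3 among them. The effect in TRAP minus that in total-RNA, on the log2 scale, was 2.53 for Pltp (adjusted p = 0.013), 2.06 for Crym (adjusted p = 0.0276) and -2.60 for Fbln5 (adjusted p = 0.00392). Pltp overlaps Ctsa on the opposite strand, and its reads cannot be told apart from those of Ctsa if the counting ignored strand.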

How the results depend on the processing

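The count of genes changed by EtOH in TRAP was 737. It was 739 with RLE factors, 712 with filterByExpr, 497 with the glial and vascular covariate and 1095 with the striatal covariate, all within a factor of 1.5. It was 1491 with DESeq2, 1365 with exactTest, 1472 without the filter on low counts, 1191 in a single fit over all 22 libraries, 87 at an adjusted p under 0.01 and 52 with the excitatory covariate. Fits without a library gave between 84 and 1550, with the libraries that moved the count most named above. In total-RNA the count of 2482 became 151 in the single fit and 802 at an adjusted p under 0.01, and lay between 878 and 3616 without a library (943, 878 and 1226 without Control mouse 1, 4 or 7 and 1628 without EtOH mouse 5). The interaction count of 3 became 5 with the Control and EtOH libraries alone, 16 with the likelihood ratio test, 5 without the filter, 1 at an adjusted p under 0.01 and 14 with the replicate block (the mouse), and lay between 1 and 5 without a library (1 without either library of Control mouse 1 or 4, and 5 without the TRAP library of EtOH mouse 9). The cause of these shifts was not tested, except that fits without a library hold fewer mice.

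Of the 157 genes named, none that was called changed direction under these settings. With the excitatory covariate 127 lost their call, with the glial and vascular covariate 43, in the single fit 13, and without Control mouse 1, 4 or 7 107, 102 and 104. Without EtOH mouse 2, 5, 8 or 9 the losses were 35, 49, 41 and 3. With 3 Control mice, each of whose removal cut the count, changes of genes with low counts or widely spread Control values are least certain.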

Other observations

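Families of genes outside the lists were looked up after the values were seen, so their counts are descriptions. Of the 8 families looked up, 4 are described below and the others had 1 higher and 1 lower of 66 protocadherins, 3 and 1 of 55 histones, 1 and 2 of 21 Zdhhc palmitoyltransferases and 3 and 0 of 23 collagens, where 2.77% and 2.47% of all genes were called. Of 13 host genes of small nucleolar RNAs, whose introns encode guides of ribosomal RNA modification, 6 rose, against 2.77% of all genes, and none fell, with a median log2 fold change of 0.91 in TRAP and 0.73 in total-RNA. Gas5 was at 83.4, 44.8 and 59.6 CPM in Control and 119.7, 198, 180.2 and 160.4 CPM in EtOH (log2 fold change 1.40, standard error 0.23, adjusted p = 0.00706). Zfas1, which overlaps Znfx1, was at 10.8, 7.76 and 9.41 CPM in Control and 24.4, 39.9, 32.7 and 29.6 CPM in EtOH (log2 fold change 1.77, standard error 0.22, adjusted p = 0.00253). Snhg12 was at 16.4, 11.3 and 11.9 CPM in Control and 27.6, 43.3, 34.8 and 36.2 CPM in EtOH (log2 fold change 1.43, standard error 0.21, adjusted p = 0.00474). Each EtOH mouse lay above each Control mouse in these 3 non-coding transcripts. Of 11 tubulin genes, which encode the subunits of microtubules, 5 fell, against 2.47% of all genes, and none rose, and all 11 had a negative log2 fold change, with a median of -0.65 in TRAP and -0.61 in total-RNA. Tuba4a, which overlaps Stk16, was at 389, 382 and 417 CPM in Control and 213, 130.2, 241 and 227 CPM in EtOH (log2 fold change -0.97, adjusted p = 0.0157). Tubb5 was at 421, 421 and 499 CPM in Control and 274, 173, 263 and 337 CPM in EtOH (log2 fold change -0.77, adjusted p = 0.0396). The neuronal Tubb3 was at 198, 204 and 231 CPM in Control and 139.9, 126, 147 and 147 CPM in EtOH (log2 fold change -0.59, adjusted p = 0.0254).

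Of 5 genes of cerebellins and netrin-G proteins, organizers of synapses, 4 fell, against 2.47% of all genes, with a median of -1.38, beside one of -0.09 in total-RNA. This difference was not tested for the family. Cbln2 was at 15.99, 17.5 and 18.7 CPM in Control and 5.20, 2.15, 4.23 and 10.9 CPM in EtOH (log2 fold change -1.64, adjusted p = 0.0386). Cbln4 was at 8.10, 4.07 and 8.86 CPM in Control and 2.57, 1.12, 2.68 and 2.88 CPM in EtOH (log2 fold change -1.60, adjusted p = 0.0398), and mouse 9 had the highest EtOH level of both. Copines, calcium-dependent membrane-binding proteins, were called in both directions, with 3 of 8 higher and 1 lower, against 2.77% and 2.47% of all genes. Cpne2 was at 16.8, 14.8 and 23.1 CPM in Control and 72.7, 75.2, 43.1 and 32.1 CPM in EtOH (log2 fold change 1.61, adjusted p = 0.0131). Cpne9, which overlaps Gm43935, was at 45.5, 35.01 and 33.7 CPM in Control and 8.46, 8.75, 11.9 and 25.4 CPM in EtOH (log2 fold change -1.48, adjusted p = 0.0279).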
